A study of Rattus norvegicus with 9 samples.

Results

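Debris engulfment and lipid handling were followed through 10 genes chosen by symbol: the receptors Mertk, Axl, Megf10, Trem2, Cd36 and Lrp1, the debris-associated genes Gpnmb and Spp1, and the lipid carrier and exporter genes Apoe and Abca1. Of these, 9 were found among the 21486 genes of the count table, and Cd36 was not analysed here. All 9 passed the filter on low counts in a set of 15659 tested genes.

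RNA was sequenced from tissue that had grown inside conduits bridging a 2 cm gap in the rat sciatic nerve, at day 14 after implantation. The AFMC-AA-SP conduit holds aligned fibers and lengthwise microchannels, carries spermidine on the fiber surface and holds L-ascorbic acid within the fibers. The AFMC conduit has the same fibers and microchannels without these molecules, and the Hollow conduit is an empty tube. Each group had 3 libraries. The labels give neither the strain and age of the rats nor how many animals a library stands for, so p-values measure only the spread between these libraries.

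When an axon is cut off, its myelin breaks down into lipid-rich debris that must be cleared before new axons can cross. Schwann cells start this clearance and blood-derived macrophages carry most of it on. Both cell types read phosphatidylserine on dying material through bridging proteins and receptors, and digest the catch in lysosomes. Cholesterol from digested myelin is then exported to lipoproteins, or stored in droplets in foamy, lipid-laden macrophages. Most roles given here come from work in mice.

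Library totals were 18314489 to 26074134 counts. AFMC replicate 3 stood apart in a principal component analysis of log2 CPM (first component, 32.9% of the variance), with a score of 72.3 against -23.5 to 9.93 in the other 8 libraries. The summed level of 10 neutrophil markers was 76.5 to 122 CPM in AFMC-AA-SP tissue, 70.03, 97.1 and 594.5 CPM in AFMC tissue, the last in replicate 3, and 39.3 to 59.3 CPM in Hollow tissue. Markers of the labelled tissue were present in every library: Sox10, the Schwann lineage transcription factor, was at 46.1 to 85.7 CPM, and Cd68, a macrophage lysosomal marker, was at 378 to 758 CPM. In whole tissue, fewer cells of a type and less RNA per cell cannot be told apart.

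Spp1, Apoe and Gpnmb were among the most abundant transcripts of the conduit tissue. On the FPKM scale, which allows for gene length, their means over the 9 libraries were 4185.5 ± 1834, 3881 ± 1335 and 1832 ± 445 (SD), which ranked 5, 7 and 20 among all genes. Together they took 1.9% to 3.89% of the summed FPKM of a library. The receptors lay far below: mean FPKM was 103 ± 8.98 for Lrp1, 87.7 ± 23.4 for Trem2, 64.3 ± 10.3 for Axl, 16.6 ± 3.59 for Mertk and 2.78 ± 0.543 for Megf10 (SD, n = 9). Abca1 lay between Axl and Mertk at 33.9 ± 6.53 FPKM. This order of the 9 genes held between neighbours in every library except for 3 pairs: Spp1 was above Apoe in 6 of 9 libraries, Lrp1 above Trem2 in 7 and Trem2 above Axl in 8. The mean within-library log2 ratio of FPKM was 0.06 ± 0.83 for Spp1 over Apoe and 0.28 ± 0.51 for Lrp1 over Trem2, both within 1 SD of 0, and 0.41 ± 0.37 for Trem2 over Axl (SD, n = 9). Lrp1 varied least, with its highest library 1.38 times its lowest, and Spp1 varied most, with a ratio of 4.42.

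**Figure D1:**
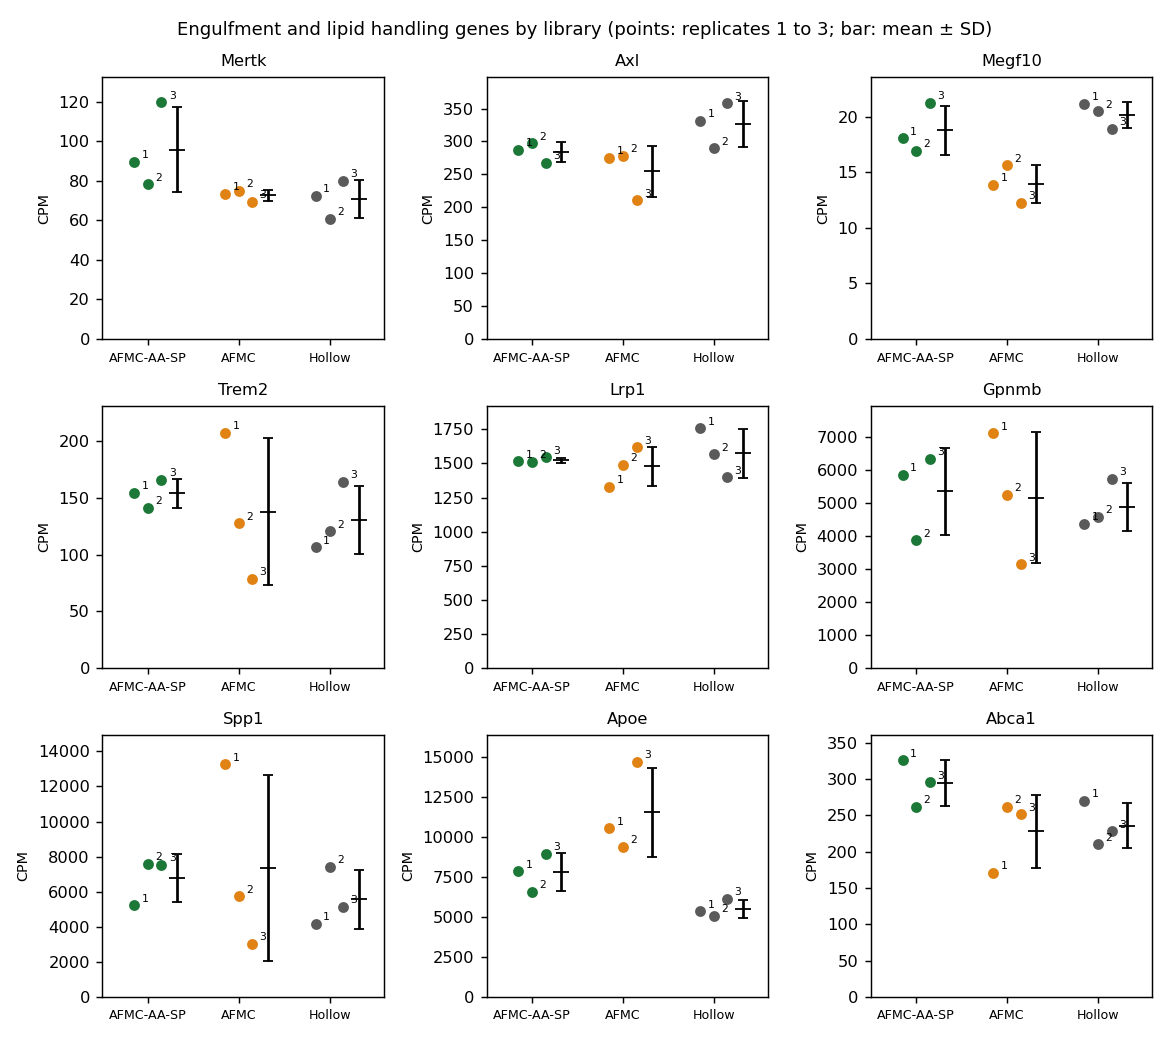
Level of each of the 9 measured genes in CPM (y axis from 0) in AFMC-AA-SP, AFMC and Hollow libraries; points are libraries with their replicate number, and the bar is the mean ± SD of 3. Apoe is separated in all 3 groups, with AFMC highest and Hollow lowest, Megf10 is lowest in the 3 AFMC libraries, and Trem2, Gpnmb and Spp1 spread most within AFMC.

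The comparison of AFMC with Hollow asks what the internal guidance structure changes, and that of AFMC-AA-SP with AFMC asks what the added molecules change. The comparisons share libraries, so their values are not independent of each other. In AFMC against Hollow, edgeR called 0 of the 9 genes at an adjusted p under 0.05, and 0% of all genes. At an unadjusted edgeR p under 0.05, Apoe was in the direction of higher, against 8.4% of all genes, and Axl and Megf10 in that of lower, against 11.1%, which makes 3 of 9 against 19.5%. DESeq2 called Apoe higher, against 2.93% of its genes, and Megf10 lower, against 4.35%, or 2 of 9 against 7.28%. The AFMC and Hollow libraries did not overlap for Apoe, higher in AFMC as were 10.2% of all genes, or for Axl and Megf10, lower as were 12.3%, together 3 of 9 against 22.5%.

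For AFMC-AA-SP against AFMC, edgeR again called 0 of 9 genes and 0% of all genes. Mertk and Megf10 had an unadjusted edgeR p under 0.05 in the direction of higher, against 10.1% of all genes, and Apoe in that of lower, against 7.21%, or 3 of 9 against 17.3%. DESeq2 called 1 of 9, Apoe lower, against 4.12% of its genes in either direction, 0.888% lower and 3.23% higher. Libraries did not overlap for Mertk, Megf10 and Abca1, higher as were 12.5% of all genes, or for Apoe, lower as were 10.3%, or 4 of 9 against 22.8%.

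Between AFMC-AA-SP and Hollow, edgeR called 0 of 9 and 0% of all genes. DESeq2 called 0 of 9 and 0.0512% of its genes, 0.0448% higher and 0.0064% lower. Mertk and Apoe, 2 of 9, had an unadjusted edgeR p under 0.05, both in the direction of higher, against 3.24% of all genes, 1.69% higher and 1.55% lower. Apoe, 1 of 9, was higher without overlap, against 10% of all genes, 5.05% higher and 4.96% lower.

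**Figure D2:**
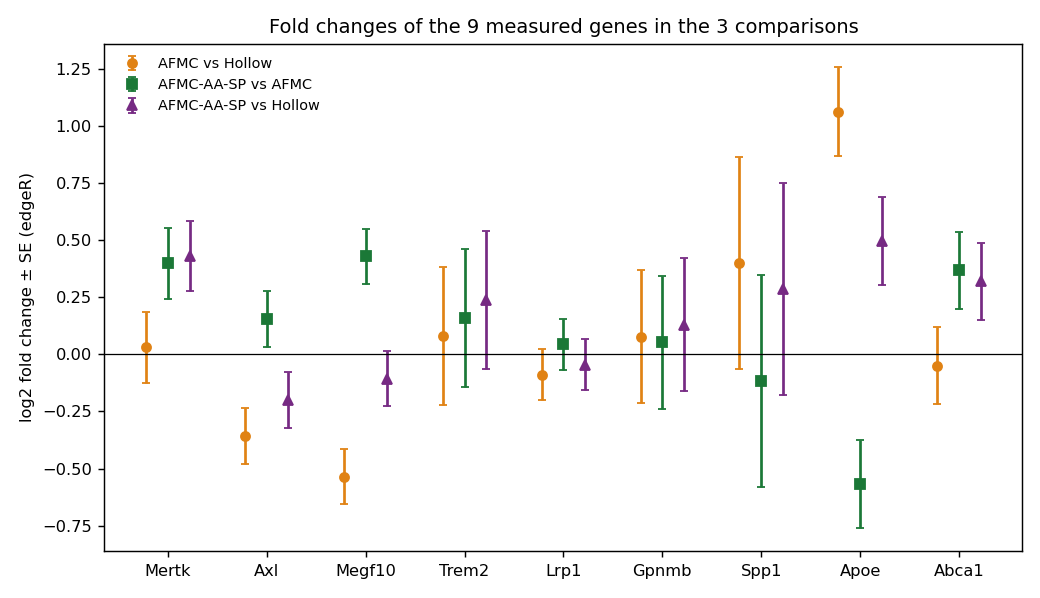
Log2 fold change ± SE by edgeR (y axis) of the 9 measured genes (x axis) in AFMC vs Hollow (circles), AFMC-AA-SP vs AFMC (squares) and AFMC-AA-SP vs Hollow (triangles). Apoe stands at 1.06 in AFMC vs Hollow and -0.57 in AFMC-AA-SP vs AFMC, Megf10 shows the opposite signs at -0.54 and 0.43, and the intervals of Trem2, Gpnmb and Spp1 span 0 throughout.

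Among the receptors, Megf10 was the one whose AFMC libraries lay below both other groups. Megf10 is an engulfment receptor known mainly from astrocytes, where it takes up synapses and dead cells, and it is listed on chromosome 18 from 50605656 to 50754456, with the genome build of the table not given in the sources used here. It stood at 18.05, 16.95 and 21.3 CPM in AFMC-AA-SP tissue, at 13.9, 15.6 and 12.3 CPM in AFMC tissue, and at 21.2, 20.5 and 18.9 CPM in Hollow tissue. Every AFMC library was below every library of the other groups, while AFMC-AA-SP and Hollow overlapped. Its log2 fold change in AFMC against Hollow was -0.54 ± 0.12 (SE), with an adjusted p of 0.115 by edgeR and 0.0102 by DESeq2. In AFMC-AA-SP against AFMC it was 0.43 ± 0.12 (SE), with an adjusted p of 0.161 by edgeR and 0.0683 by DESeq2. Without AFMC replicate 3 the values were -0.45 ± 0.12 and 0.35 ± 0.12 (SE), and the DESeq2 adjusted p of the first became 0.0919. The edgeR adjusted p of the first was 0.0329 without AFMC replicate 2.

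Axl and Mertk are receptor tyrosine kinases of the TAM family, which bind phosphatidylserine through the bridging proteins Gas6 and protein S. Axl, listed on chromosome 1 from 81265088 to 81296265, stood at 287, 297 and 267 CPM in AFMC-AA-SP tissue, 276, 278 and 210.5 CPM in AFMC tissue and 331, 289.5 and 358 CPM in Hollow tissue. AFMC lay below Hollow without overlap, and AFMC replicate 3 was the lowest of the 9 libraries. The log2 fold change of AFMC over Hollow was -0.36 ± 0.12 (SE), with an adjusted p of 0.171 by edgeR and 0.0902 by DESeq2, and without AFMC replicate 3 it was -0.24 ± 0.10 (SE).

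Mertk showed another pattern, with its high values in AFMC-AA-SP. It is listed on chromosome 3 from 115939351 to 116046554 and stood at 89.5, 78.1 and 119.6 CPM in AFMC-AA-SP tissue, 73.3, 74.8 and 69.5 CPM in AFMC tissue, and 72.3, 60.7 and 79.8 CPM in Hollow tissue. AFMC-AA-SP replicate 3 was the highest library, and replicate 2 lay between Hollow replicates 1 and 3. The log2 fold change was 0.40 ± 0.16 (SE; adjusted p = 0.247 by edgeR) against AFMC and 0.43 ± 0.16 (SE; adjusted p = 0.9999 by edgeR) against Hollow. Without AFMC-AA-SP replicate 3 these were 0.21 and 0.24.

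The ligands of the TAM receptors, named here for their role, varied less. Gas6 averaged 651 ± 37.4 CPM in AFMC-AA-SP tissue, 695 ± 89.3 CPM in AFMC tissue and 606.5 ± 51.7 CPM in Hollow tissue (SD, n = 3 each). Pros1, which encodes protein S, averaged 112 ± 12.3, 95.7 ± 13.4 and 109 ± 7.27 CPM in AFMC-AA-SP tissue, AFMC and Hollow (SD, n = 3 each). For both genes the 3 groups overlapped, and no comparison had an adjusted p under 0.35 by edgeR.

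Lrp1, an endocytic receptor that takes up apolipoprotein E and myelin debris in both macrophages and Schwann cells, was the most even member. It is listed on chromosome 7 from 63380356 to 63460910 and stood at 1515, 1512 and 1546 CPM in AFMC-AA-SP tissue, 1329.9, 1488.5 and 1618 CPM in AFMC tissue, and 1757, 1566 and 1397 CPM in Hollow tissue. The groups overlapped in all 3 comparisons. Its log2 fold change in AFMC against Hollow was -0.09 ± 0.11 (SE), and 0.16 ± 0.10 (SE) once a trend with gene length was taken out of each library. The Lrp1 model of 14765 bases is the longest of the 9.

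Trem2, a lipid-sensing receptor of macrophages that signals through the adaptor Tyrobp, differed more within AFMC than between groups. It is listed on chromosome 9 from 12647259 to 12654170 and stood at 154, 141 and 166 CPM in AFMC-AA-SP tissue, 207, 127 and 78.5 CPM in AFMC tissue, and 106, 120.3 and 164 CPM in Hollow tissue. AFMC held both the highest and the lowest of the 9 libraries. The log2 fold changes were 0.08 ± 0.30 in AFMC against Hollow, 0.16 ± 0.30 in AFMC-AA-SP against AFMC and 0.24 ± 0.30 in AFMC-AA-SP against Hollow (SE).

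Set against each other within a library, macrophage and glial receptors gave no separation of the groups. Since Cd36 was not analysed here, the macrophage side was Trem2 alone and the glial side was the sum of Megf10 and Lrp1, of which Lrp1 makes up nearly all and is also a macrophage receptor. The log2 ratio of their FPKM was -0.13, -0.26 and -0.06 in AFMC-AA-SP, 0.48, -0.38 and -1.19 in AFMC, and -0.88, -0.54 and 0.07 in Hollow. AFMC spanned all other libraries, and AFMC-AA-SP was the tightest group. The difference in mean log2 ratio was 0.09 ± 0.56 for AFMC minus Hollow, 0.21 ± 0.49 for AFMC-AA-SP minus AFMC and 0.30 ± 0.29 for AFMC-AA-SP minus Hollow (SE). With Mertk added to the macrophage side and Axl to the glial side these became 0.21 ± 0.41, 0.18 ± 0.37 and 0.39 ± 0.22 (SE), and the groups still overlapped. Single libraries set the sign: for AFMC minus Hollow, leaving out AFMC replicate 1 gave -0.33, AFMC replicate 3 gave 0.51 and Hollow replicate 1 gave -0.12. For AFMC-AA-SP minus AFMC, leaving out AFMC replicate 3 gave -0.20 and AFMC replicate 1 gave 0.63. For AFMC-AA-SP minus Hollow the range over left-out libraries was 0.087 to 0.56. With the mean of log2 FPKM in place of the sum, the 3 differences were 0.31, 0.03 and 0.34.

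Pairs of single receptors, taken as a description, ran as follows. Trem2 to Megf10, Trem2 to Lrp1 and Mertk to Axl were planned, while Mertk to Megf10 and Trem2 to Axl were not. The log2 ratio of Mertk to Megf10 was 2.71, 2.61 and 2.90 in AFMC-AA-SP, 2.81, 2.66 and 2.91 in AFMC, and 2.18, 1.97 and 2.48 in Hollow. Both guided groups lay above Hollow without overlap, by 0.53 ± 0.17 for AFMC-AA-SP and 0.58 ± 0.16 for AFMC (SE), and they differed from each other by -0.05 ± 0.11 (SE). Different genes stood behind this ratio in each group. The log2 fold change over Hollow was -0.54 for Megf10 and 0.03 for Mertk in AFMC. In AFMC-AA-SP it was -0.11 for Megf10 and 0.43 for Mertk, or 0.24 for Mertk without AFMC-AA-SP replicate 3. The log2 ratio of Mertk to Axl was -1.78, -2.03 and -1.26 in AFMC-AA-SP, -2.01, -1.99 and -1.70 in AFMC, and -2.29, -2.35 and -2.26 in Hollow. It too was higher in every AFMC-AA-SP and AFMC library than in any Hollow library, by 0.61 ± 0.23 and 0.40 ± 0.10 (SE). The log2 fold change of Axl over Hollow was -0.20 in AFMC-AA-SP and -0.36 in AFMC. The Trem2 to Axl ratio was higher without overlap in AFMC-AA-SP than in Hollow, by 0.46 ± 0.19 (SE), and overlapped in the other comparisons. Both the Trem2 to Megf10 and the Trem2 to Lrp1 ratio overlapped between all groups. For Trem2 to Lrp1 the difference was 0.08 ± 0.56 for AFMC minus Hollow and 0.22 ± 0.49 for AFMC-AA-SP minus AFMC (SE). It was 0.30 ± 0.29 (SE) for AFMC-AA-SP minus Hollow. Of single genes, 22.5% do not overlap between AFMC and Hollow and 10% between AFMC-AA-SP and Hollow, and no such share was computed for pairs.

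**Figure D3:**
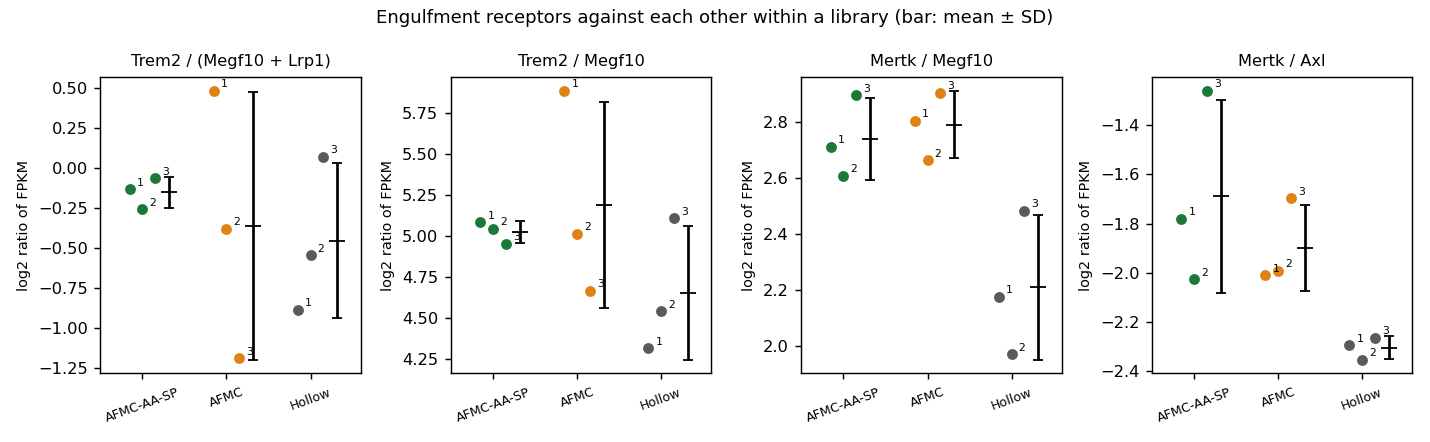
Log2 ratio of FPKM between engulfment receptors within each library (y axis) for AFMC-AA-SP, AFMC and Hollow; points are libraries with their replicate number, and the bar is the mean ± SD of 3. Mertk over Megf10 and Mertk over Axl lie lowest in the 3 Hollow libraries, whereas Trem2 over Megf10 plus Lrp1 runs from -1.19 to 0.48 within AFMC alone.

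Trem2, Gpnmb and Spp1 shared their extremes, both in AFMC libraries. Gpnmb is a membrane glycoprotein of lysosomes and lipid-laden macrophages, and Spp1 encodes osteopontin, a secreted matrix protein made by macrophages and by injured Schwann cells. Their promoter windows are shown because the 3 genes share these extremes: 250 bases before the start, 5′ to 3′ on the gene's strand, from RefSeq on GRCr8, at chr9:20151780-20152029 (Trem2, minus strand), chr4:79340878-79341127 (Gpnmb, plus strand) and chr14:5619805-5620054 (Spp1, minus strand). Capitals mark CATGTG on either strand, an E-box read by factors of the MITF and TFE family, which control lysosomal genes.
Trem2: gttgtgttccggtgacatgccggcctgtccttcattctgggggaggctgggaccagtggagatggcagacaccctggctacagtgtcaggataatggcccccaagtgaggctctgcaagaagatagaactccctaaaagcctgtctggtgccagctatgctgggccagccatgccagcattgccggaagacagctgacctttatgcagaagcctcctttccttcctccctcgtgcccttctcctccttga
Gpnmb: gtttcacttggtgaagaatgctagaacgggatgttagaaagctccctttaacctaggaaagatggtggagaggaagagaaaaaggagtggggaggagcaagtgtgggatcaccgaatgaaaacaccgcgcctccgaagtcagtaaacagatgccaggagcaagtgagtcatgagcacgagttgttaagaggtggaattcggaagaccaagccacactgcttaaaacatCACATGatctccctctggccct
Spp1: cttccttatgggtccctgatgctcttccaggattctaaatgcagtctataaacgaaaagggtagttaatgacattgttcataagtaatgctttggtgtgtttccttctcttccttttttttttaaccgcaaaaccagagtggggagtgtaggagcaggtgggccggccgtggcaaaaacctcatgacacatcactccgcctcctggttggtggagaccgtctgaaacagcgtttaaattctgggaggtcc
Of these windows only that of Gpnmb holds the letters, 22 to 17 bases before the start. Windows were found for 8 of the 9 genes, and CATGTG occurs in 12.1% and CACGTG in 5.59% of 33469 rat windows of this length, on either strand.

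Gpnmb, listed on chromosome 4 from 78010197 to 78049367, stood at 5871, 3869.5 and 6351 CPM in AFMC-AA-SP tissue, 7121, 5254 and 3141 CPM in AFMC tissue, and 4378, 4584 and 5734 CPM in Hollow tissue. Spp1, listed on chromosome 14 from 5308885 to 5315162, stood at 5224, 7598 and 7529.5 CPM in AFMC-AA-SP tissue, 13272, 5737 and 3035 CPM in AFMC tissue, and 4153, 7429.5 and 5119.5 CPM in Hollow tissue. Like Trem2, both genes were highest in AFMC replicate 1 and lowest in AFMC replicate 3. Over the 9 libraries Pearson's r of log2 CPM was 0.894 between Trem2 and Gpnmb, 0.811 between Trem2 and Spp1 and 0.657 between Gpnmb and Spp1, as a description that leans on AFMC replicates 1 and 3. Over the 6 AFMC-AA-SP and Hollow libraries, a choice made after seeing the data, r was 0.712, 0.302 and -0.0791 for these pairs in the same order. Outside AFMC, Spp1 thus did not follow Gpnmb: AFMC-AA-SP replicate 2 had the lowest Gpnmb and the highest Spp1 of its group. In AFMC against Hollow the log2 fold change of Gpnmb was 0.08 ± 0.29 and that of Spp1 0.40 ± 0.46 (SE; adjusted p = 0.907 and 0.672 by edgeR).

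The sign of these fold changes rested on single AFMC libraries. In AFMC against Hollow, leaving out AFMC replicate 1 gave -0.34 for Trem2, -0.22 for Gpnmb and -0.34 for Spp1, and leaving out AFMC replicate 3 gave 0.36, 0.34 and 0.77. None of these values had an adjusted p under 0.36 by edgeR. The genes most like Trem2 over the 9 libraries, among 11195 genes with a mean of at least 5 CPM, were Rnf128 (r = 0.976), a ubiquitin ligase, Alkbh7 (r = 0.97), a mitochondrial protein, and Atp6v1a (r = 0.969), the catalytic subunit of the proton pump that acidifies lysosomes. Each of them was, like Trem2, highest in AFMC replicate 1 and lowest in AFMC replicate 3. They were picked for the highest r, so these values are a description only.

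**Figure D4:**
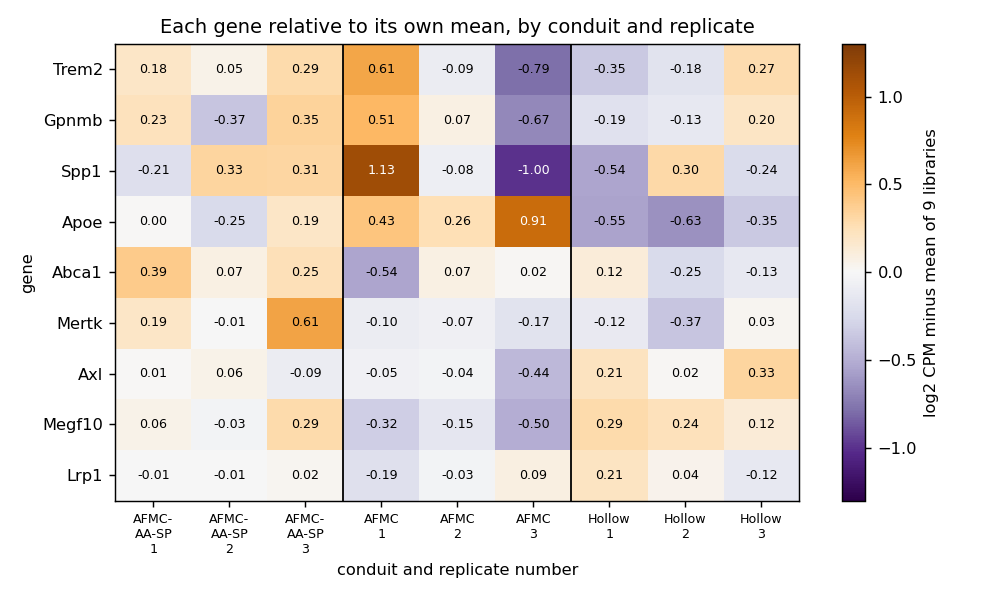
Log2 CPM of each gene (rows) minus its mean over the 9 libraries, by conduit and replicate (columns), with brown above and purple below the mean. Trem2, Gpnmb and Spp1 are highest in AFMC replicate 1 (0.61, 0.51 and 1.13) and lowest in AFMC replicate 3, where Apoe has its highest value, 0.91.

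Apoe was the member with the largest difference between conduits and did not follow Trem2 over the 9 libraries (Pearson's r of log2 CPM = -0.139). Their FPKM ratio, Apoe over Trem2, was 28.3 to 40.8 in the AFMC-AA-SP and Hollow libraries. In AFMC replicates 1, 2 and 3 it was 38.55, 55.7 and 141.5, so the widest departures were in AFMC replicates 2 and 3. Apoe encodes the apolipoprotein that carries cholesterol released from myelin, and is made by macrophages and glia. The gene is listed on chromosome 1 from 79353916 to 79357932. Apoe stood at 7855, 6593 and 8949.6 CPM in AFMC-AA-SP tissue, 10559.6, 9389 and 14703 CPM in AFMC tissue, and 5354, 5068 and 6147 CPM in Hollow tissue. No group overlapped another: AFMC was highest, Hollow lowest and AFMC-AA-SP between them. AFMC replicate 3, the library that stood apart, was the highest.

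In AFMC against Hollow the fold was 2.09 and the log2 fold change 1.06 ± 0.20 (SE), with an adjusted p of 0.102 by edgeR and 5.33e-06 by DESeq2. Without AFMC replicate 3 it was 0.85 ± 0.15 (SE), with an adjusted p of 0.199 by edgeR and 5.36e-06 by DESeq2. Without AFMC replicate 2 the edgeR adjusted p was 0.022. Between AFMC-AA-SP and AFMC the log2 fold change was -0.57 ± 0.19 (SE), with an adjusted p of 0.209 by edgeR and 0.0437 by DESeq2. Without AFMC replicate 3 that value was -0.36 ± 0.15 (SE), and its DESeq2 adjusted p was 0.209. AFMC-AA-SP against Hollow gave 0.50 ± 0.19 (SE), with an adjusted p of 0.9999 by edgeR and 0.992 by DESeq2, and of 0.0485 by DESeq2 without AFMC replicate 3.

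Abca1, the pump that loads cellular cholesterol onto apolipoproteins, did not follow Apoe over the 9 libraries (Pearson's r of log2 CPM = -0.0323). Listed on chromosome 5 from 67681297 to 67801170, it stood at 325.5, 262 and 296 CPM in AFMC-AA-SP tissue, 171, 262 and 251 CPM in AFMC tissue, and 269.8, 209.8 and 228 CPM in Hollow tissue. AFMC-AA-SP lay above AFMC by the narrowest margin, 261.9 CPM in AFMC-AA-SP replicate 2 against 261.8 CPM in AFMC replicate 2, and overlapped Hollow. The log2 fold change of AFMC-AA-SP over AFMC was 0.37 ± 0.17 (SE; adjusted p = 0.303 by edgeR), and 0.20 ± 0.13 (SE) without AFMC replicate 1. Against Hollow, AFMC-AA-SP gave 0.32 ± 0.17 and AFMC gave -0.05 ± 0.17 (SE). The log2 ratio of Abca1 to Apoe in FPKM was -6.41, -6.47 and -6.73 in AFMC-AA-SP, -7.77, -6.98 and -7.69 in AFMC, and -6.13, -6.41 and -6.57 in Hollow. Every AFMC library was below every library of the other groups, by 0.94 ± 0.27 for AFMC-AA-SP minus AFMC and -1.11 ± 0.28 for AFMC minus Hollow (SE). Since Abca1 alone differed by -0.05 in AFMC against Hollow, that ratio restates the Apoe difference, and 22.8% and 22.5% of single genes show no overlap in these comparisons. Between AFMC-AA-SP and Hollow the ratio overlapped, with a difference of -0.17 ± 0.16 (SE), so the pair parted in the AFMC libraries. Nr1h3, the sterol-sensing receptor LXR alpha that induces Abca1 and Apoe, averaged 28.9 ± 0.610 CPM in AFMC-AA-SP tissue, 33.7 ± 3.58 CPM in AFMC tissue and 28.5 ± 3.38 CPM in Hollow tissue (SD, n = 3 each).

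The Apoe and Abca1 promoters are shown as those of the lipid pair whose levels diverged in AFMC, again as the 250 bases before the start from RefSeq on GRCr8, at chr1:88485817-88486066 (the first of 3 Apoe starts, minus strand) and chr5:72596474-72596723 (Abca1, minus strand). Capitals mark CATGTG in Apoe, 40 to 35 bases before the start, and CACGTG in Abca1, 149 to 144 bases before it. The windows of the other Apoe starts, not shown, held neither sequence.
Apoe: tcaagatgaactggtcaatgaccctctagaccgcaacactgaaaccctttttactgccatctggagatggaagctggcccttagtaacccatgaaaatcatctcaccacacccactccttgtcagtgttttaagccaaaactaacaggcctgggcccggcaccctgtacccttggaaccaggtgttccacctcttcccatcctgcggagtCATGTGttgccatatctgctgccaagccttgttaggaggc
Abca1: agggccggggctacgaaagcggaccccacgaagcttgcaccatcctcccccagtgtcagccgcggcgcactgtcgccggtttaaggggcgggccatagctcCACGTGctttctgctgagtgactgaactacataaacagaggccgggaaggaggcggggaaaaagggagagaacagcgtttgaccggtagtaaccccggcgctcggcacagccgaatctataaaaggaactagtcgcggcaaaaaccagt
The strict LXR direct repeat, a pair of identical half-sites with a fixed spacer, searched on both strands, was in none of the 10 windows of the 8 genes and in 1 of the 33469 windows. These matches describe letters in one window and are not evidence of binding.

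Around the 9 genes, lysosomal genes were mostly positive in AFMC against Hollow. Of 27 tested lysosomal genes 23 had a positive log2 fold change, with a median of 0.19, against 52.1% of all genes and a median of 0.01. None passed edgeR, 6 (22.2%, against 19.5% of all genes) had an unadjusted edgeR p under 0.05 and DESeq2 called 3 (11.1%, against 7.28%), all higher. These were the proteases Ctss at 0.58 ± 0.17, Ctsz at 0.53 ± 0.16 and Ctsb at 0.37 ± 0.12 (SE; adjusted p = 0.0215, 0.0306 and 0.0179 by DESeq2). Without AFMC replicate 3 the DESeq2 adjusted p was 0.124, 0.135 and 0.0211 for these proteases. Without that library the count was 26 of 27 and the median 0.26. Other engulfment genes were positive in 28 of 41, with a median of 0.11. EdgeR called 0 of them, 8 (19.5%, the share of all genes) had an unadjusted p under 0.05, and DESeq2 called 2 (4.88%, against 7.28%). These were Havcr1, a phosphatidylserine receptor, at 1.39 ± 0.38 and Rac2, a GTPase of blood cells that drives the phagocytic cup, at 0.67 ± 0.20 (SE; adjusted p = 0.0217 and 0.0257 by DESeq2). Havcr1 was scarce, at 2.25, 2.11 and 4.77 CPM in AFMC tissue and 0.845, 1.07 and 1.54 CPM in Hollow tissue, with AFMC replicate 3 the highest, and its log2 fold change was 0.92 without that library. Rac2 had an adjusted p of 0.100 by DESeq2 without AFMC replicate 3. The integrin gene Itgav, whose product binds osteopontin and bridging proteins, was at 260.2 ± 56.6 CPM in AFMC tissue and 352 ± 32.2 CPM in Hollow tissue (SD, n = 3 each), and its groups overlapped.

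Genes of lipid uptake and export were positive in 18 of 29, with a median of 0.13, in AFMC against Hollow. EdgeR called 0 of them, 8 (27.6%, against 19.5% of all genes) had an unadjusted p under 0.05, and DESeq2 called 2 (6.9%, against 7.28%), the phospholipid transfer protein Pltp at 0.38 ± 0.11 and the transporter Abca7 at 0.31 ± 0.09 (SE; adjusted p = 0.0194 and 0.0477 by DESeq2, and 0.0712 and 0.272 without AFMC replicate 3). Vldlr, a lipoprotein receptor for apolipoprotein E, had -0.37 ± 0.11 (SE; adjusted p = 0.136 by edgeR and 0.0557 by DESeq2). Genes of the lipid-laden macrophage state were positive in 10 of 18, with a median of 0.05. EdgeR called 0 of those, 4 (22.2%, against 19.5%) had an unadjusted p under 0.05, and DESeq2 called 3 (16.7%, against 7.28%): Clec7a, a pattern receptor, at 0.61 ± 0.15, Cst7, a protease inhibitor of activated microglia, at 0.78 ± 0.25, and Ctsb. Without AFMC replicate 3, 16 of the 18 were positive with a median of 0.23. Osteopontin receptors were positive in 4 of 9, with a median of -0.19. Among these, edgeR called 0, 3 (33.3%, against 19.5%) had an unadjusted p under 0.05, and DESeq2 called 1 (11.1%, against 7.28%), Itga4, an integrin subunit of immune and neural crest cells, at -0.71 ± 0.15 (SE; adjusted p = 0.00217 by DESeq2), while Itga8 stood at -0.53 ± 0.22 (SE), -0.35 without AFMC replicate 3 and -0.32 without Hollow replicate 1.

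The same lists leaned the other way in AFMC-AA-SP against AFMC, a comparison that shares the AFMC libraries. Lysosomal genes were positive in 8 of 27, with a median of -0.10, against 48% of all genes and a median of -0.01. Engulfment genes were positive in 14 of 41, lipid genes in 12 of 29 and genes of the lipid-laden state in 5 of 18, with medians of -0.10, -0.06 and -0.10. Osteopontin receptors were positive in 6 of 9, with a median of 0.10. EdgeR called no gene of these 5 lists, with an unadjusted p under 0.05 in 3, 8, 1, 1 and 4 genes of the engulfment, lipid, lysosome, lipid-laden and osteopontin lists. These are 7.32%, 27.6%, 3.7%, 5.56% and 44.4% of the lists, against 17.3% of all genes. DESeq2, with 4.12% of its genes called, called 2 lipid genes (6.9%) and 1 osteopontin receptor (11.1%), all higher: Vldlr at 0.51 ± 0.11, Apod, a lipid carrier of nerve fibroblasts and glia, at 0.47 ± 0.12, and Itga4 at 0.62 ± 0.15 (SE; adjusted p = 0.00524, 0.0141 and 0.0107 by DESeq2, and 0.0299, 0.0834 and 0.0755 without AFMC replicate 3). By library Itga4 stood at 68.8, 53.1 and 72.5 CPM in AFMC-AA-SP tissue, 38.1, 51.6 and 36.5 CPM in AFMC tissue, and 68.3, 67.7 and 70.8 CPM in Hollow tissue, so that every AFMC library lay below both other groups.

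Several genes of that comparison did not pass either tool. Msr1, a scavenger receptor of macrophages, stood at 102 ± 6.31 CPM in AFMC-AA-SP tissue and 80.5 ± 5.92 CPM in AFMC tissue (SD, n = 3 each), and had 0.34 ± 0.11 (SE; adjusted p = 0.192 by edgeR). Igf1, a growth factor of lipid-laden macrophages, had 0.64 ± 0.24, and Osbpl8, a lipid transfer protein, 0.69 ± 0.23 (SE). Each leaned on 1 library: Igf1 had 0.40 without AFMC replicate 1, and Osbpl8 had 0.42 without AFMC replicate 3, where DESeq2 gave it an adjusted p of 0.00411. On the lower side were Cd44, an osteopontin receptor, at -0.32 ± 0.12, Itga5 at -0.31 ± 0.11, Rac2 at -0.50 ± 0.20 and Ctsz at -0.38 ± 0.16 (SE). Tyrobp, the signalling adaptor of Trem2, had -0.38 ± 0.20 (SE), while Itgav had 0.37 ± 0.15 (SE). Leaving out 1 library gave -0.32 for Rac2 (AFMC-AA-SP replicate 2), -0.21 for Tyrobp (AFMC replicate 1) and 0.23 for Itgav (AFMC replicate 3). The lysosomal regulator Tfe3 had -0.15 ± 0.08, Lamp2 0.13 ± 0.07 and Ctsb -0.18 ± 0.12 (SE).

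The study's own sheet of phagocytosis genes holds 11 genes, of which Axl, Mertk, Megf10 and Lrp1 are described above. In AFMC against Hollow 2 of 11 were positive, with a median of -0.10, against 52.1% of all genes. In AFMC-AA-SP against AFMC all 11 were, with a median of 0.23, against 48% of all genes. In AFMC-AA-SP against Hollow 5 of 11 were positive, with a median of -0.02, against 50.2% of all genes. Neither tool called any of the 11 there, and 2 (18.2%, against 3.24% of all genes) had an unadjusted edgeR p under 0.05. The sheet lists values of these same libraries and how its genes were chosen is not stated, so its direction is not taken as independent evidence. In AFMC against Hollow edgeR called 0 of the 11 and 4 (36.4%, against 19.5% of all genes) had an unadjusted p under 0.05. DESeq2 called 2 there (18.2%, against 7.28%), both lower: Megf10 and Zfyve16, an endosomal protein, at -0.51 ± 0.13 (SE; adjusted p = 0.0194 by DESeq2). In AFMC-AA-SP against AFMC edgeR called 0 of the 11 and 5 (45.5%, against 17.3% of all genes) had an unadjusted p under 0.05. DESeq2 called 1 (9.09%, against 4.12%), Zfyve16 at 0.48 ± 0.13 (SE; adjusted p = 0.0431 by DESeq2). Mertk and the scavenger receptor genes Msr1 and Scara5 (0.37 ± 0.12, SE) were among those above AFMC, while Trem2, Gpnmb, Spp1, Apoe and Abca1 are not on the sheet.

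In AFMC-AA-SP against Hollow lysosomal genes were positive in 23 of 27, with a median of 0.16 against 0.00 for all genes, and DESeq2 and edgeR called none, with 2 (7.41%, against 3.24% of all genes) at an unadjusted edgeR p under 0.05. Ctsl had 0.42 ± 0.18, the regulator Tfec 0.36 ± 0.14 and Ctss 0.35 ± 0.17 (SE). Ctsl had 0.17 without AFMC-AA-SP replicate 3, and Ctss 0.23 without replicate 1 of that group. Engulfment genes were positive in 26 of 41, lipid genes in 22 of 29, genes of the lipid-laden state in 11 of 18 and osteopontin receptors in 1 of 9, with medians of 0.06, 0.07, 0.09 and -0.10, and neither tool called any of them. Their unadjusted edgeR p was under 0.05 in 1, 0, 3 and 0 genes, or 2.44%, 0%, 16.7% and 0% against 3.24% of all genes. Of these, Havcr1 had 0.91 ± 0.38, Msr1 0.24 ± 0.11, Clec7a 0.42 ± 0.15, Cst7 0.61 ± 0.25, Cyp27a1, a sterol hydroxylase, 0.31 ± 0.18 and Mylip, which degrades lipoprotein receptors, 0.24 ± 0.15 (SE). Without AFMC-AA-SP replicate 3 Cst7 had 0.34, and without AFMC-AA-SP replicate 1 Cyp27a1 had 0.13. Ppara, a fatty acid sensor, had -0.81 ± 0.36 at a level of only 0.790 ± 0.243 CPM in AFMC-AA-SP tissue and 1.39 ± 0.568 CPM in Hollow tissue (SD, n = 3 each), and had -0.42 without Hollow replicate 1. Itgb3, Itga5 and Cd44 had -0.27 ± 0.13, -0.19 ± 0.11 and -0.18 ± 0.12 (SE).

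Cell markers moved with several of these genes. The 12 Schwann cell markers summed to 2107 to 2449 CPM in AFMC-AA-SP tissue, 1379 to 2196 CPM in AFMC tissue and 2176 to 3138 CPM in Hollow tissue. All 12 were negative in AFMC against Hollow, with a median of -0.56, and 11 of 12 were positive in AFMC-AA-SP against AFMC, with a median of 0.51. The 14 macrophage markers summed to 6561 to 8565 CPM in AFMC-AA-SP tissue, 6729.9 to 9595 CPM in AFMC tissue and 5117 to 7843 CPM in Hollow tissue, with 11 of 14 positive and a median of 0.35 in AFMC against Hollow. Of these markers 2 of 14 were positive in AFMC-AA-SP against AFMC, with a median of -0.21. In AFMC-AA-SP against Hollow 11 of 14 were, with a median of 0.09. The 8 fat cell markers summed to 240.2 to 309.8 CPM in AFMC-AA-SP tissue, 143 to 154 CPM in AFMC tissue and 155 to 213.5 CPM in Hollow tissue, and all 8 were positive in AFMC-AA-SP against AFMC, with a median of 2.20. The neutrophil markers, whose sums are given above, were higher in every AFMC-AA-SP and AFMC library than in any Hollow library. Their median was 1.18 in AFMC-AA-SP against Hollow, with 9 of 10 positive, and 2.58 in AFMC against Hollow, with 8 of 10 positive, or 1.06 with 8 of 10 without AFMC replicate 3. By group they thus ran in the same direction as Rac2, Clec7a, Ctss and Cst7, as did most macrophage markers. By library this held only in part. Within AFMC, Rac2 and Ctss were highest in replicate 3, as was the neutrophil sum, but Clec7a and Cst7 were highest in replicate 1, where that sum was lowest. No marker of these lists had a count of 0 in any library. The part of these markers in the values of the 9 genes and of the listed genes was not tested.

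Across the 9 libraries, 18 relations were computed between the 9 genes and the mean centred log2 CPM of the Schwann cell and macrophage markers. Of these, 5 had an adjusted p of r under 0.05 by the exact permutation test, two-sided. The test shuffled libraries across the conduit groups, so its p-values also take in differences between groups. They do not measure association among libraries of the same conduit. Megf10 ran with the Schwann cell markers, with r = 0.918 (exact permutation p = 0.000766, adjusted 0.00689) and rho = 0.75 (p = 0.0255, adjusted 0.115). Without AFMC replicates 1 and 3, the libraries farthest from the median score, r was 0.674, and over the 6 AFMC-AA-SP and Hollow libraries, a choice made after seeing the data, it was 0.26. The relation of Megf10 thus rests largely on the AFMC libraries.

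Apoe ran against the Schwann cell markers, with r = -0.924 (exact permutation p = 6.61e-05, adjusted 0.00119) and rho = -0.967 (p = 0.000165, adjusted 0.00298). It was -0.861 without AFMC replicates 1 and 3 and -0.838 over the 6 AFMC-AA-SP and Hollow libraries. With the macrophage markers Apoe had r = 0.8 (exact permutation p = 0.00983, adjusted 0.0432) and rho = 0.683 (p = 0.0503, adjusted 0.181), with r = 0.491 without AFMC replicate 3 and Hollow replicate 1, on which the relation rests. Axl had r = -0.913 (exact permutation p = 0.0016, adjusted 0.00962) and rho = -0.9 (p = 0.00203, adjusted 0.0183) with the macrophage markers, and r = -0.828 without those 2 libraries. Axl with the Schwann cell markers had r = 0.785 (exact permutation p = 0.012, adjusted 0.0432) and rho = 0.75 (p = 0.0255, adjusted 0.115), and r = 0.4 without AFMC replicates 1 and 3, on which it rests. The macrophage receptor Trem2 had r = -0.182 (exact permutation p = 0.643, adjusted 0.775) and rho = 0.117 (p = 0.776, adjusted 0.911) with the macrophage markers, with r = 0.289 without AFMC replicate 3 and Hollow replicate 1 and r = 0.594 without AFMC replicate 3 alone. The 3 libraries of a group are too few for a value within a group.

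**Figure D5:**
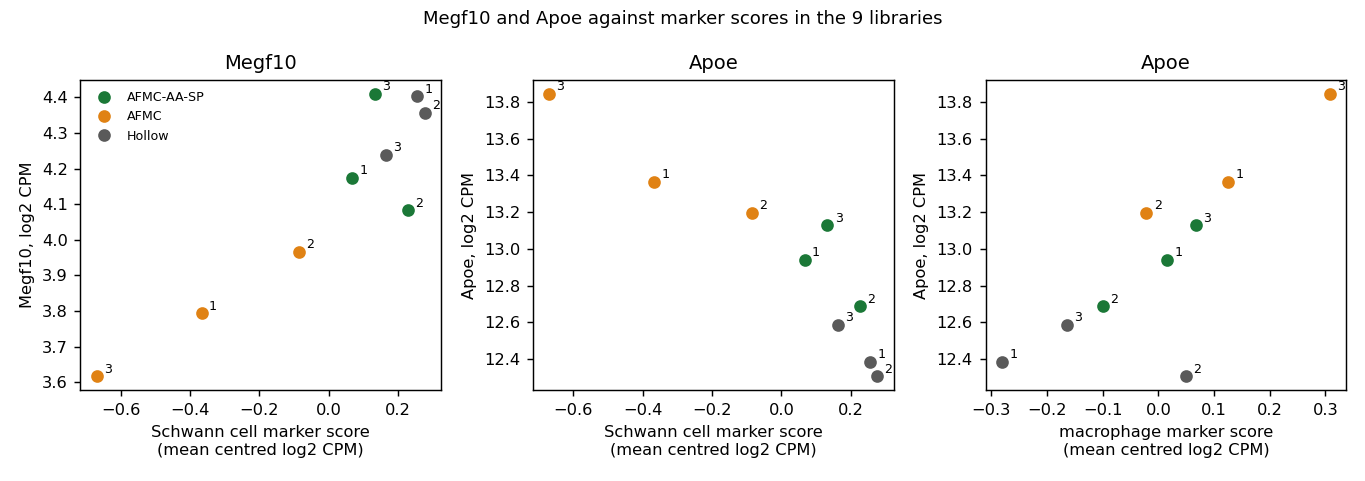
Log2 CPM of Megf10 and Apoe (y axes) against the mean centred log2 CPM of 12 Schwann cell markers (left and centre) or 14 macrophage markers (right), 1 point per library with its replicate number, coloured by conduit. Megf10 rises with the Schwann cell score (r = 0.918) mainly through the 3 AFMC libraries, and Apoe falls with it (r = -0.924).

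The genes most like Megf10 over the 9 libraries, among the same 11195, were Slain2 (r = 0.988), a microtubule plus-end protein, Esyt2 (r = 0.976), which tethers the endoplasmic reticulum to the cell membrane, and Ptpn9 (r = 0.976), a tyrosine phosphatase. Their log2 fold changes in AFMC against Hollow were -0.28 ± 0.08, -0.27 ± 0.08 and -0.24 ± 0.07 (SE), smaller than that of Megf10. In AFMC-AA-SP against AFMC they were 0.22 ± 0.08, 0.23 ± 0.08 and 0.18 ± 0.07 (SE). As with Megf10, every AFMC library of these genes lay below every library of the other groups. They too were picked for the highest r.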

How the data were processed

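Polyadenylated RNA was sequenced as strand-specific paired reads of 150 bases, per the labels' protocols. The counts in the gene table were deposited by the authors as whole, unscaled reads per gene. The FPKM values were computed by the authors with 1 length per gene, since the length they imply agreed between libraries within 0.00739%. No source used here names the aligner, the counting program or the genome build.

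Counts were fitted with edgeR 4.0.16 in R 4.3.3 (filterByExpr, TMM factors, quasi-likelihood test, 1 term per conduit group over all 9 libraries), two-sided, with Benjamini-Hochberg adjustment over 15659 genes and a threshold of 0.05. The SE is the log2 fold change divided by the square root of the F statistic. CPM uses TMM-scaled totals. DESeq2 1.42.0, other scalings and filters, a replicate block, a length offset and leaving out each library were alternatives. The steps were tested on simulated data for AFMC against Hollow, with 50 changed genes per size of change. Of log2 changes of 0.5 edgeR recovered 10% and DESeq2 32%, and of log2 changes of 1 they recovered 82% and 88%. Of unchanged genes edgeR called 8 and DESeq2 27. The simulation held no library that stood apart as AFMC replicate 3 does. A 3 against 3 exact permutation test cannot give a p under 0.1.

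The 10 genes and all gene lists were chosen with earlier results of these data known. Named genes are the 9 measured ones, the 3 listed genes of smallest edgeR p per list and comparison where fewer than 3 were called, and the 3 genes most like Megf10 and Trem2. Gas6, Pros1, Nr1h3, Zfyve16 and Scara5 were named outside that rule, after their values were seen. Since Cd36 was not analysed here, 18 relations with marker scores were computed.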

Additional observations from a re-analysis of the deposited data

How the results depend on the processing

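Which genes passed depended on the tool and on the AFMC libraries, and the cause was not tested. In AFMC against Hollow edgeR called 0 genes, the fit with a replicate block 1, DESeq2 1028 and DESeq2 without AFMC replicate 3 357, and of the 9 genes these called 0, 0, 2 and 1. Leaving out 1 library gave 0 to 894 genes and 0 to 2 of the 9, the highest without AFMC replicate 2. In AFMC-AA-SP against AFMC edgeR called 0 genes, 6 with no filter on low counts, 2 with a replicate block, 2 with a length offset and without AFMC replicate 3, DESeq2 594 and DESeq2 without AFMC replicate 3 284. DESeq2 called 1 of the 9, and leaving out 1 library gave 0 to 579 genes, again highest without AFMC replicate 2. In AFMC-AA-SP against Hollow DESeq2 called 8 genes and, without AFMC replicate 3, 44 genes and 1 of the 9. A length offset without AFMC replicate 3 gave 1, and leaving out 1 library gave 0 to 1.

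Megf10, Apoe and Mertk kept the sign of their log2 fold changes under every setting run, except Mertk in AFMC against Hollow (-0.064 to 0.13 over left-out libraries). With a length offset and without AFMC replicate 3, Megf10 had -0.34 in AFMC against Hollow and 0.24 in AFMC-AA-SP against AFMC, where Apoe had -0.30, each over 1.5 times smaller than with all libraries. With a length offset and all libraries, Apoe, with a model of 2122 bases, had 1.01 in AFMC against Hollow and -0.51 in AFMC-AA-SP against AFMC. Megf10, with 6363 bases, then had -0.42 and 0.32. With a length offset AFMC against Hollow gave -0.0073 for Trem2, 0.087 for Abca1 and 0.16 for Lrp1, and with AFMC replicate 3 also left out 0.077 for Lrp1. AFMC-AA-SP against AFMC then gave -0.20 for Lrp1 and -0.0091 for Lamp2, and without AFMC replicate 3 as well -0.024 for Axl, -0.032 for Trem2, -0.19 for Gpnmb, -0.12 for Lrp1 and -0.025 for Lamp2. DESeq2 without AFMC replicate 3 gave -0.13 for Trem2 and -0.21 for Gpnmb there. Over left-out libraries, AFMC against Hollow ran from -0.34 to 0.36 for Trem2, -0.22 to 0.34 for Gpnmb, -0.34 to 0.77 for Spp1 and -0.16 to 0.12 for Abca1. AFMC-AA-SP against AFMC ran from -0.12 to 0.58 for Trem2, -0.21 to 0.36 for Gpnmb, -0.49 to 0.63 for Spp1 and -0.027 to 0.11 for Lrp1. AFMC-AA-SP against Hollow ran from -0.0086 to 0.33 for Gpnmb, -0.12 to 0.041 for Lrp1, -0.064 to 0.11 for Nr1h3 and -0.010 to 0.12 for Pros1.

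Deviations from the group mean correlated at -0.0466 to 0.14 between same-numbered libraries of different groups, and at -0.129 to 0.0843 between differently numbered ones. Pairing by number was not assumed, and correlations of this size cannot decide whether the numbers pair the samples. The replicate block gave 0.013 for Spp1 in AFMC-AA-SP against AFMC, where the sign turned, and changed no call among the 9 genes.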
